A study of Mus musculus with 18 samples.

Results

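The 38 genes described here encode proteins of myelin, enzymes of myelin lipid metabolism, regulators of oligodendrocyte fate and other products enriched in mature oligodendrocytes. They were chosen by symbol from knowledge of the cell type, with earlier results of these data known. Each matched 1 of the 54547 gene rows in every count file. Total RNA was taken from homogenate of dissected medial prefrontal cortex. The mice were of strain C57BL6/J and aged postnatal day 100. Of 18 libraries, 9 came from animals on a control diet and 9 from animals whose chow held PLX5622 at 1200 mg/kg, an inhibitor of the microglial survival receptor CSF1R. The labels describe 21 days of diet followed by 44 days of every-other-day access to 15% ethanol, with tissue collected 24 hours after the last ethanol. The same protocol wording is given for each of the 18 libraries and mentions PLX5622 even for controls, so the diet is taken from the chow label. Diet is the only contrast, and no group without ethanol was analysed here. The labels give no sex, litter, cage or dissection session.

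Oligodendrocytes wrap axons in compacted membrane so that impulses can jump between nodes. Their precursors differentiate under the transcription factors Olig1, Olig2, Sox10, Nkx6-2 and Myrf, and then produce large amounts of myelin protein and galactolipid. In cortex, myelin is denser in the deep layers and in the white matter beneath. In bulk tissue, fewer cells of a type and less RNA per cell cannot be told apart.

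Short stretches of promoter are shown for members that moved together across libraries, and a link between the letters and that movement was not tested. RefSeq promoter windows of 300 bases (250 before to 50 after a start, GRCm38.p6) were found for 26 of the 38 members, in 37 windows, some of them overlapping. Both strands were searched for the SOX core letters ACAAAG and ACAATG and for the MYRF letters CTGGCAC and CTGGTAC, which are not contained in each other. Capitals mark the match, and each stretch is read along the strand of its gene.
Cnp SOX, chr11:100574760-100574789: aacttttaaggaACAAAGaggtggcgtggc
Cnp MYRF, chr11:100574847-100574876: accgctgcttcCTGGCACtcaggtttccat
Mog MYRF, chr17:37023463-37023492: agaaatgcccaGTACCAGgcagccactgct
Ermn SOX, chr2:58053081-58053110: acaaggaaaattACAATGggccattatgga
Tspan2 SOX, chr3:102735161-102735190: ggcgctaagcagACAAAGagggaggggaca
Tmem88b SOX, chr4:155785945-155785974: gtgaaatgaagcCATTGTttgggagaactg
Plekhb1 SOX, chr7:100657178-100657207: ctctgactgacaCTTTGTactgttcccatt
Cnp and Tspan2 lie on the plus strand and the other genes on the minus strand. SOX letters stood in 16 of the 37 member windows (43.2%) and in 28.6% of all 32851 windows. MYRF letters stood in 8 member windows (21.6%) and in 7.10% of all windows. Among the 11 windows of the members that passed the test of following Mbp, SOX letters stood in 5 (45.5%) and MYRF letters in 2 (18.2%), and these matches are the ones shown. Members that did not pass, such as Apod, Lpar1, Mobp and Opalin, also held SOX letters. A match is a description of letters only, and a window without one says nothing about the factor.

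Myelin RNA varied between libraries of the same diet. Levels are given as CPM, library-scaled counts (TMM), and are not set against each other between genes. Mbp (ENSMUSG00000041607.16, chromosome 18, 82475146 to 82585637 in GRCm38) encodes the basic protein that seals the cytoplasmic faces of myelin. It ran from 548 to 851 CPM over the 9 controls, with a median of 630 CPM. With PLX5622 it ran from 429 to 985 CPM, with a median of 661 CPM. The PLX5622 range thus enclosed the control range, and the highest control library exceeded the lowest 1.55-fold. Every member with fewer counts carried relatively more counting noise, since Mbp had at least 601 counts in a library and Adamts4 as few as 11.

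The same libraries were high or low in many members. Of 29 members with enough counts for testing, control 4 was the highest control library in 13 and control 8 in 10. Each of these libraries was among the top 3 controls in at least 25 of the 29. PLX5622 28 was the highest library of its diet in 13 members, and PLX5622 34 in 7. At the other end, PLX5622 26 was the lowest of its diet in 13 members and PLX5622 27 in 8, while control 7 was the lowest control in 8. The summed level of the 17 structural myelin genes ran from 1077 CPM in control 7 to 1615 CPM in control 4, and from 894 CPM in PLX5622 27 to 1811 CPM in PLX5622 28. PLX5622 28 was also the smallest library, with 990136 counts, while PLX5622 27 held 1575247.

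**Figure D1:**
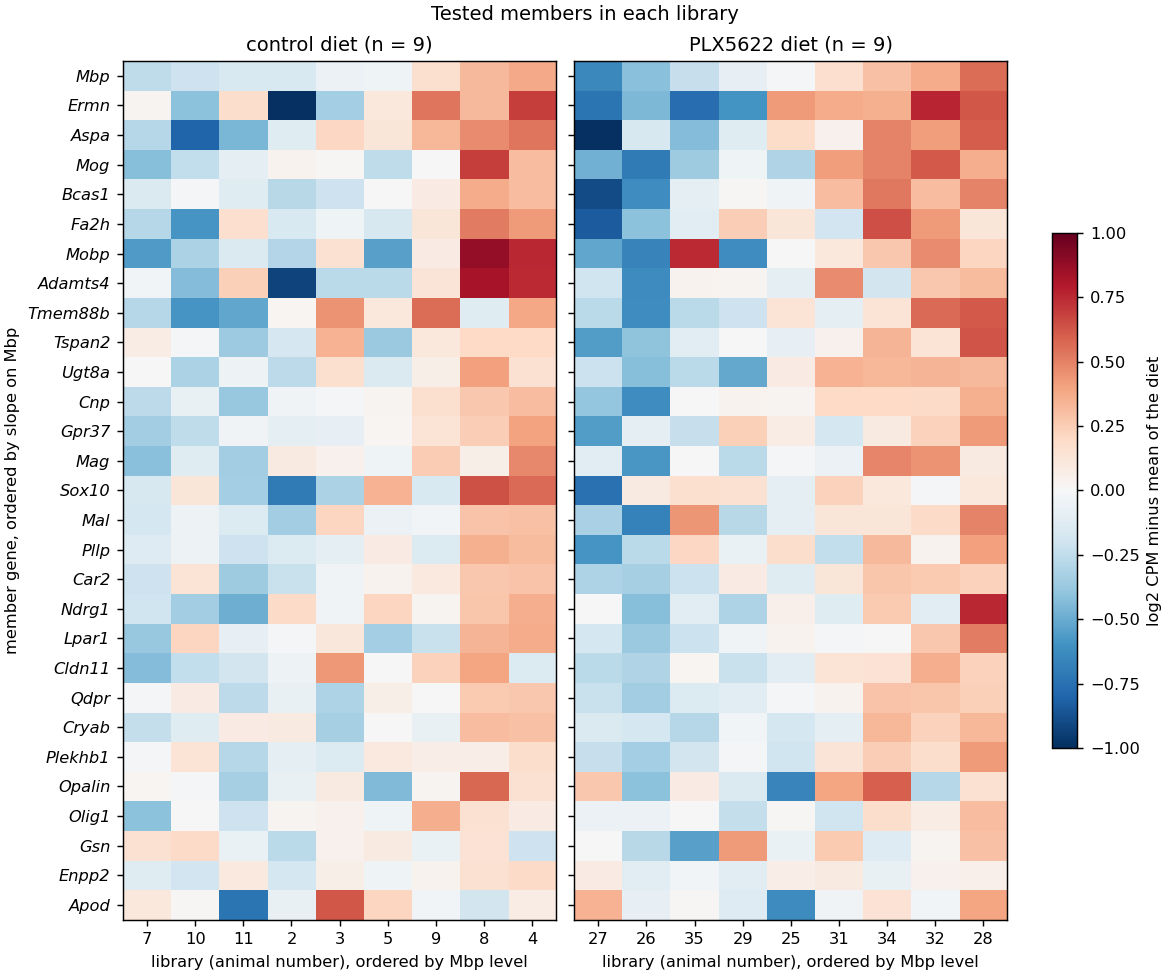
Level of the 29 tested members in each library, as log2 CPM minus the mean of the diet (colour, from -1 to 1), with control libraries on the left and PLX5622 libraries on the right, 9 each. Columns are ordered by Mbp and rows by the slope on Mbp; most rows turn from blue to red from left to right, while Apod and Gsn do not and Enpp2 varies little.

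To measure this shared swing, each gene was fitted on the log2 CPM of Mbp with diet in the model, so that the difference between diets was removed. The slope is the change in log2 level per log2 unit of Mbp, and a slope of 1 means that a gene moved in proportion to Mbp. Of 28 members tested (Mbp left out), 13 rose with Mbp by edgeR's quasi-likelihood test with Benjamini-Hochberg adjustment over 11050 genes, and none fell. Over all genes 0.163% were called upward (18 genes) and 0% downward. The median slope of the members was 0.64, against -0.003 for all genes, and 27 of the 28 were above 0.

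Of the structural genes tested, 7 of 12 rose with Mbp. A difference in this share from the other members was not tested. Mog, an immunoglobulin-family protein on the outermost lamella, ran from 22.8 to 49.4 CPM in controls (median 30.6 CPM) and from 18.7 to 46.6 CPM with PLX5622 (median 29.5 CPM). Its lowest library was control 7 in one diet and PLX5622 26 in the other, and its slope was 1.17 ± 0.19 (SE, edgeR adjusted p = 2.5e-05). Bcas1, which marks oligodendrocytes that are starting to myelinate, ran from 70.1 to 109.7 CPM in controls (median 84.2 CPM) and from 46.8 to 125.4 CPM with PLX5622 (median 87.8 CPM). Its slope of 1.08 ± 0.12 had the smallest adjusted p among the members (6.9e-10). Cnp, a phosphodiesterase that keeps cytoplasmic channels open within myelin, ran from 80.8 to 129.8 CPM in controls (median 104.3 CPM) and from 64.6 to 127.2 CPM with PLX5622 (median 102.1 CPM). Cnp rose with Mbp with a slope of 0.73 ± 0.11 (adjusted p = 8.7e-06), which was not tested against 1.

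Ermn, a cytoskeletal protein of mature oligodendrocytes, had the steepest slope of the members, 1.42 ± 0.22 (adjusted p = 2.5e-05). It ran from 10.0 to 34.7 CPM in controls (median 23.2 CPM) and from 15.0 to 43.1 CPM with PLX5622 (median 32.6 CPM). Its lowest libraries, control 2 and PLX5622 35, were not those lowest in Mbp. The tetraspanin gene Tspan2 (slope 0.77 ± 0.16) and Tmem88b (0.92 ± 0.21) also rose, as did Cldn11, the claudin of the tight junctions between lamellae (0.57 ± 0.14, adjusted p = 0.048). Cldn11 ran from 51.1 to 93.4 CPM in controls (median 66.8 CPM) and from 62.3 to 98.8 CPM with PLX5622 (median 77.7 CPM). Its call was lost when any of 13 single libraries was left out (controls 5, 7, 8, 9, 10 and 11, PLX5622 26, 27, 28, 29, 31, 32 and 34), with slopes from 0.52 to 0.66.

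Other structural genes had positive slopes that did not pass. Mag, an adhesion molecule facing the axon, ran from 31.9 to 59.7 CPM in controls (median 44.0 CPM) and from 27.3 to 57.2 CPM with PLX5622 (median 40.2 CPM), with a slope of 0.68 ± 0.17 (edgeR adjusted p = 0.056). It was called when control 2, control 8, PLX5622 27 or PLX5622 28 was left out. Mal, a raft-associated proteolipid, had a slope of 0.64 ± 0.15 (adjusted p = 0.056), with 78.8 to 122.6 CPM in controls (median 96.7 CPM) and 63.1 to 142.7 CPM with PLX5622 (median 109.7 CPM). It was called without control 3 or without PLX5622 35. Mobp, a small basic protein of central myelin, ran from 15.5 to 42.1 CPM in controls (median 20.7 CPM) and from 17.9 to 47.7 CPM with PLX5622 (median 30.7 CPM). Its slope was 0.99 ± 0.27 (adjusted p = 0.210), and it was called only without PLX5622 35. Pllp, a proteolipid related to Mal, had a slope of 0.63 ± 0.18 (adjusted p = 0.186). Opalin, a transmembrane glycoprotein of oligodendrocytes, had the lowest slope of the structural genes, 0.37 ± 0.24 (adjusted p = 0.955), with 16.6 to 33.4 CPM in controls (median 22.8 CPM) and 11.8 to 28.3 CPM with PLX5622 (median 19.8 CPM).

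**Figure D2:**
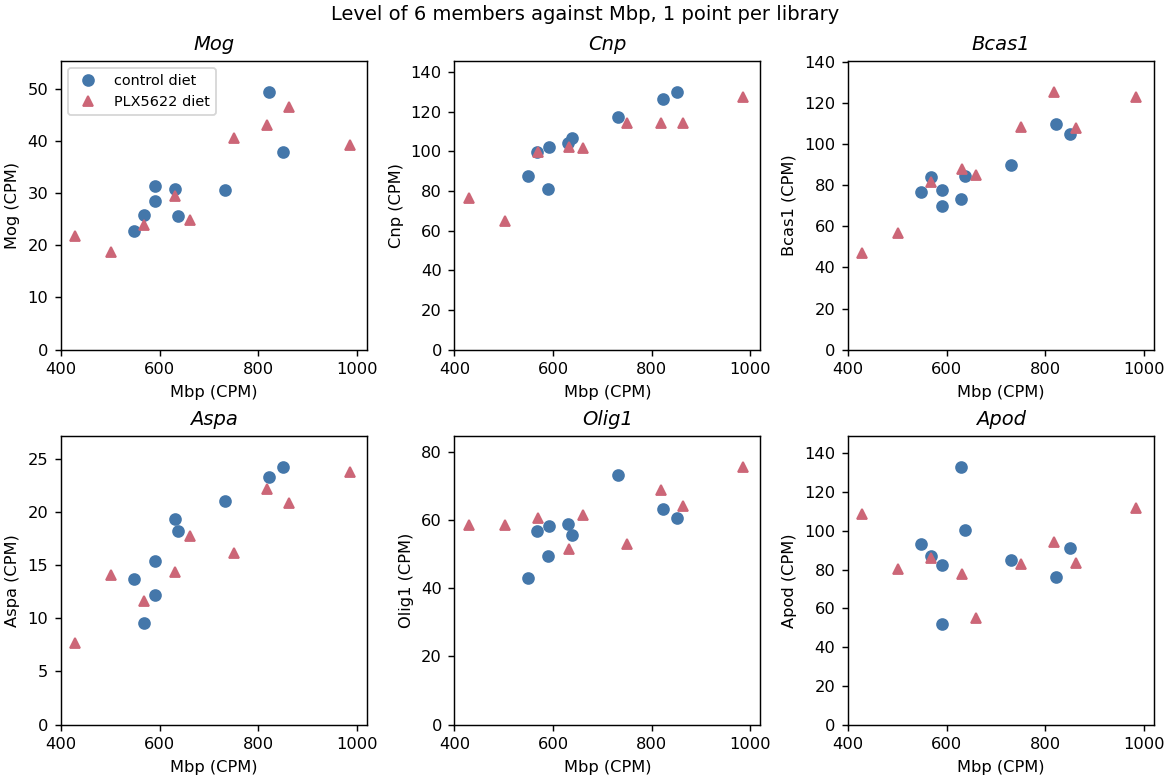
CPM of Mog, Cnp, Bcas1, Aspa, Olig1 and Apod (vertical axes, from 0) against CPM of Mbp (horizontal axes, from 400) in 18 libraries, circles for control diet and triangles for PLX5622 diet. The points of both diets lie along the same rise for Mog, Cnp, Bcas1 and Aspa (slopes 1.17, 0.73, 1.08 and 1.31), Olig1 is flatter (0.34) and Apod shows no rise (-0.01).

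Among genes of myelin lipid metabolism, Aspa and Fa2h rose with Mbp. Aspa, which releases acetate from N-acetylaspartate, ran from 9.60 to 24.2 CPM in controls (median 18.2 CPM) and from 7.70 to 23.8 CPM with PLX5622 (median 16.1 CPM). Its slope was 1.31 ± 0.24 (edgeR adjusted p = 0.0010), and PLX5622 27 and 28, the libraries lowest and highest in Mbp, were also lowest and highest in Aspa among PLX5622 libraries. Fa2h, which hydroxylates the fatty acids of myelin galactolipids, ran from 14.8 to 32.0 CPM in controls (median 21.6 CPM) and from 12.8 to 35.7 CPM with PLX5622 (median 24.8 CPM). Its slope was 1.02 ± 0.22 (adjusted p = 0.0090), and the call was lost without PLX5622 27 or PLX5622 34. Ugt8a, the enzyme that makes galactosylceramide, had a slope of 0.74 ± 0.18 (adjusted p = 0.056), with 25.1 to 41.4 CPM in controls (median 31.0 CPM) and 21.9 to 39.9 CPM with PLX5622 (median 33.1 CPM). It was called without control 3. The lysophosphatidic acid receptor gene Lpar1 was at 0.59 ± 0.17 (adjusted p = 0.236).

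Enpp2, the autotaxin gene whose product makes lysophosphatidic acid, stood apart from the other tested lipid genes by its narrow CPM range. It also had more counts, at least 199 per library, and so less counting noise. With counting noise and diet removed by edgeR, its coefficient of variation was 0.058. That of Lpar1 was 0.078, of Ugt8a 0.088, of Fa2h 0.13 and of Aspa 0.14. Enpp2 ran from 172.8 to 225.0 CPM in controls (median 201.4 CPM) and from 184.9 to 213.2 CPM with PLX5622 (median 205.8 CPM), with a slope of 0.14 ± 0.09 (adjusted p = 0.945). Within controls its r with Mbp was 0.79 (rho 0.72, exact permutation p = 0.013 and 0.037) and within PLX5622 libraries 0.17 (rho 0.12, exact permutation p = 0.655 and 0.776), or 0.53 and 0.49 without the 2 libraries farthest from the Mbp median. Choroid plexus, another source of Enpp2, was measured by 9 markers, none at 0 in all libraries and only Ttr with enough counts for testing. Their summed level ran from 3.82 to 16.4 CPM in controls and from 10.05 to 43.1 CPM with PLX5622, and its part in the level of Enpp2 was not tested.

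Neither regulator with enough counts passed. Sox10 and Olig1 are transcription factors that also act in precursors. Sox10 ran from 10.0 to 25.4 CPM in controls (median 14.7 CPM) and from 10.9 to 21.5 CPM with PLX5622 (median 19.6 CPM), with a slope of 0.65 ± 0.25 (edgeR adjusted p = 0.745). PLX5622 27 was the lowest of its diet in Sox10, at 17 counts, and in Mbp, while control 2 was lower still in Sox10, at 15 counts. Olig1 ran from 42.9 to 73.3 CPM in controls (median 58.1 CPM) and from 51.5 to 75.5 CPM with PLX5622 (median 60.7 CPM), with a slope of 0.34 ± 0.14 (adjusted p = 0.818). The difference between the slopes of the regulators and of the structural genes was not tested.

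Among the remaining members, Car2, Qdpr, Plekhb1 and Cryab rose with Mbp, with slopes below 1 that were not tested against 1. Car2, a carbonic anhydrase, ran from 140.1 to 217.7 CPM in controls (median 183.1 CPM) and from 149.5 to 227.4 CPM with PLX5622 (median 199.2 CPM), with a slope of 0.63 ± 0.09 (edgeR adjusted p = 6.2e-06). Qdpr, which regenerates tetrahydrobiopterin, had a slope of 0.55 ± 0.09 (adjusted p = 0.00016), and Plekhb1, a pleckstrin-homology protein, one of 0.53 ± 0.10 (adjusted p = 0.0011). Plekhb1 ran from 110.8 to 152.4 CPM in controls (median 141.5 CPM) and from 116.8 to 198.5 CPM with PLX5622 (median 145.2 CPM), and its call was lost without PLX5622 28 (adjusted p = 0.051). Cryab, a small heat shock protein, ran from 54.8 to 85.7 CPM in controls (median 68.8 CPM) and from 59.3 to 91.0 CPM with PLX5622 (median 67.5 CPM). Its slope of 0.54 ± 0.13 passed narrowly (adjusted p = 0.0496) and failed without any of 11 libraries (controls 4, 5, 7, 8 and 10, PLX5622 26, 28, 29, 32, 34 and 35).

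Ndrg1, Gpr37 and Adamts4 had slopes of 0.62, 0.70 and 0.94 that did not pass (edgeR adjusted p = 0.096, 0.266 and 0.266), though Ndrg1 was called without PLX5622 27 or PLX5622 32. Ndrg1 ran from 32.2 to 58.1 CPM in controls (median 45.9 CPM) and from 37.4 to 84.8 CPM with PLX5622 (median 46.6 CPM). Gsn, the actin-severing protein gelsolin, was at 0.16 ± 0.17, with 35.4 to 48.7 CPM in controls (median 44.0 CPM) and 27.3 to 53.2 CPM with PLX5622 (median 39.8 CPM). Apod, the lipocalin apolipoprotein D, was the only member with a slope below 0, at -0.01 ± 0.26 (adjusted p = 1.000), and this sign turned under other settings. It ran from 52.2 to 132.8 CPM in controls (median 87.1 CPM) and from 55.0 to 111.6 CPM with PLX5622 (median 83.5 CPM). Its highest control library was control 3 and its lowest control 11, neither of them the highest or lowest in Mbp.

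Of the 13 calls 7 (Aspa, Bcas1, Car2, Cnp, Ermn, Mog and Qdpr) held when each of the 18 libraries was left out in turn, and 6 were lost without at least 1 library. Those were Cldn11, Cryab, Plekhb1 and Fa2h as given above, Tspan2 (without PLX5622 27 or 28) and Tmem88b (without controls 4, 7, 9 or 10 or PLX5622 26, 28 or 32). Other reference genes in place of Mbp gave other calls. On the sum of the 45 other oligodendrocyte genes, 10 of the 13 were called and Ermn, Plekhb1 and Tmem88b were not. On Cnp, which cannot be tested against itself, 8 of the other 12 were called and Ermn, Fa2h, Cldn11 and Cryab were not. The count of calls on Mbp was 9 without PLX5622 28, and 6 of 15 when testing was limited to genes averaging 50 counts or more per library.

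**Figure D3:**
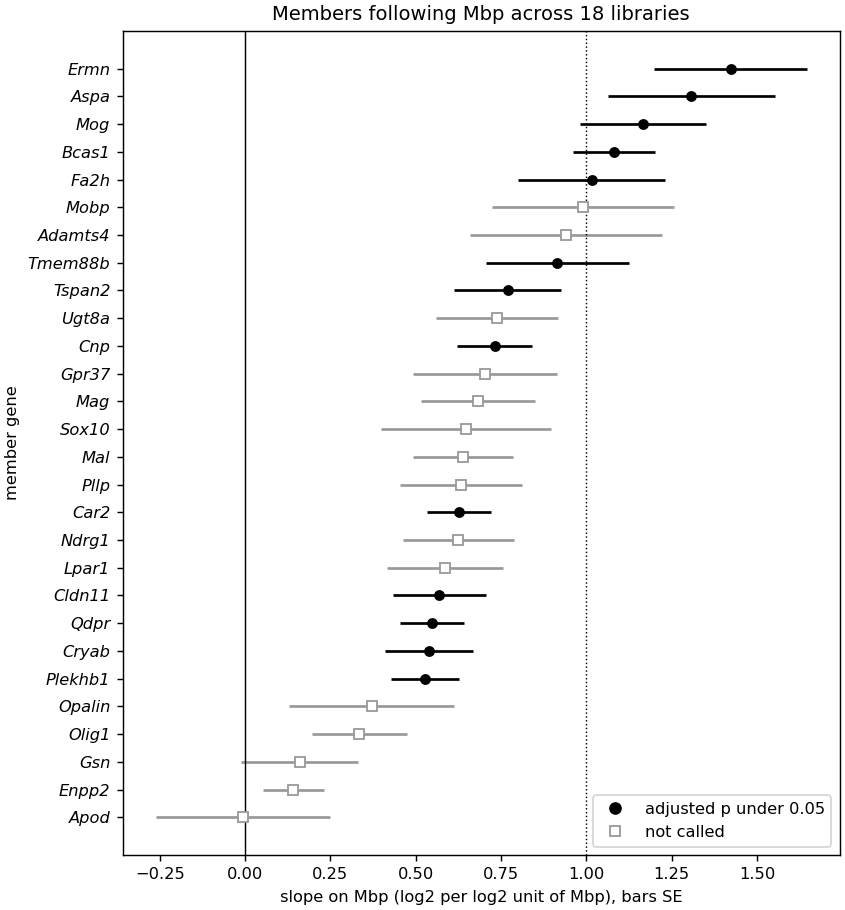
Slope of 28 members on Mbp (horizontal axis, log2 change per log2 unit of Mbp, bars SE) over 18 libraries, with diet in the model; filled circles mark an adjusted p under 0.05 and open squares the rest. The solid line marks 0 and the dotted line 1; slopes run from -0.01 for Apod to 1.42 for Ermn, and 13 are called.

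Within a diet the relation was less even, and it is given as a description of the data behind the slopes. Pearson's r between log2 CPM of a member and of Mbp over the 9 libraries of a diet was positive in 27 of 28 members in controls (median 0.73) and in 28 of 28 with PLX5622 (median 0.80). For Cnp it was 0.89 in controls (Spearman's rho 0.95, exact permutation p = 0.0014 and 0.00035, 2-sided) and 0.89 with PLX5622 (rho 0.92, exact p = 0.00056 and 0.0013). Without the 2 libraries farthest from the median of Mbp, r for Cnp was 0.75 and 0.85. For Mog it was 0.84 in controls (rho 0.72, exact p = 0.0035 and 0.037) and 0.89 with PLX5622 (rho 0.87, exact p = 0.0018 and 0.0045). Without the 2 farthest libraries r for Mog was 0.56 and 0.97. For Apod r was 0.02 and 0.08 (rho -0.03 and 0.23, exact p of 0.960 and 0.843 for r and of 0.948 and 0.552 for rho), and 0.17 and 0.21 without the 2 farthest libraries. Over the 28 members, r without the 2 farthest libraries had a median of 0.47 in controls and 0.82 with PLX5622. In controls it was under 0.2 in 10 members, among them Qdpr (0.003, from 0.64), Cryab (0.07, from 0.69), Pllp (0.11, from 0.81) and Lpar1 (-0.17, from 0.56). The 10 also hold Apod and Gsn, which were under 0.2 with all 9 controls (0.02 and -0.24). With PLX5622 it was under 0.2 in Sox10 alone (-0.16, from 0.56). Leaving out the farthest libraries also narrows the range of Mbp, which can by itself lower r. These p are unadjusted and come from 56 such relations. The adjustment over all genes is that of the slope test.

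Whether slopes differed between the diets was tested by an interaction of diet and Mbp. No member was called by edgeR (lowest adjusted p = 0.999), 3 members had an unadjusted p under 0.05, and over all 11050 genes 0% were called and 4.61% had an unadjusted p under 0.05. The 3 members were Mobp, Adamts4 and Enpp2, with interactions of -1.43 ± 0.52, -1.36 ± 0.59 and -0.44 ± 0.20, the slope being lower with PLX5622.

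Other genes of the lineage were taken from a list of 45 that holds no member. Of these 34 could be tested, 1 rose with Mbp and none fell, and their median slope was 0.30 with 29 above 0. The gene that rose was Prr5l, at 1.32 ± 0.18 (edgeR adjusted p = 5.5e-07), with 27.4 to 60.3 CPM in controls and 23.1 to 68.2 CPM with PLX5622. Several genes of this list, such as Nfasc and Tubb4a, are also expressed by neurons, and these were at -0.04 ± 0.09 and 0.07 ± 0.08. Anln, Arhgef10, Galnt6 and Slc44a1 were next by p, at 1.36, 0.62, 1.00 and 0.32, and did not pass (adjusted p = 0.062, 0.590, 0.594 and 0.630). Outside all lists 4 genes rose with Mbp, among them the zinc finger gene St18 at 1.17 ± 0.15 (adjusted p = 2.8e-07), Qk, an RNA-binding protein needed for myelination, at 0.35 ± 0.08 (0.019), and Plcl1 at 0.41 ± 0.10 (0.048). With the 13 members and Prr5l these make up the 18 genes called. Next by p, and not called, were Scd1 (0.52), Dkkl1 (-0.70), Gm16168 (1.06), Rplp0 (-0.85), Kansl1 (0.34) and Pde8a (0.97), with adjusted p from 0.056 to 0.070.

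Markers of other cells gave no slope that passed. None was called on the lists for precursors and new oligodendrocytes (15 of 18 tested), microglia (15 of 18), astrocytes (13 of 13), neurons (14 of 14), striatal neurons (7 of 9), endothelial and mural cells (13 of 13), choroid plexus (1 of 9) or meningeal fibroblasts (6 of 8). Their median slopes were 0.06, 0.20, -0.10, -0.0006, 0.04, -0.09, -0.06 and -0.09. The marker slopes with an edgeR p under 0.05 before adjustment included Vcan of the precursors at 0.55, C1qb of microglia at 0.41, Acsbg1 of astrocytes at -0.36 and Thy1 of neurons at -0.17 (edgeR adjusted p = 0.892, 0.892, 0.686 and 0.863). All markers of these other cells had counts except Trem2, which was listed at 0 in every library.

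Technical measures were set against Mbp within each diet, with 24 relations in this family and exact 2-sided permutation p. Pearson's r with the total counts was 0.20 in controls and -0.34 with PLX5622 (exact p = 0.592 and 0.375, adjusted 0.912 and 0.745). With the percentage of counts from mitochondrial genes r was -0.08 and 0.06 (exact p = 0.839 and 0.873, adjusted 0.912 each). With the animal number r was -0.11 and 0.32 (exact p = 0.770 and 0.393, adjusted 0.912 and 0.745). Spearman's rho was 0.15 and -0.20 for total counts, 0.25 and 0.02 for mitochondrial genes and -0.25 and 0.30 for animal number (exact adjusted p = 0.806 or more). Without the 2 libraries farthest from the Mbp median, r was 0.56 and 0.29, 0.31 and -0.51, and -0.02 and 0.42 in the same order. The only relation of the 24 that passed was with the summed level of the 45 other oligodendrocyte genes in the PLX5622 libraries (r = 0.93, exact p = 0.00054, adjusted 0.013, rho = 0.95, exact adjusted p = 0.0085, r = 0.85 without the 2 farthest). In controls that r was 0.77 (exact p = 0.014, adjusted 0.166, rho = 0.75, exact adjusted p = 0.204, r = 0.38 without the 2 farthest). For the astrocyte sum r was 0.73 in controls (rho = 0.80, exact adjusted p = 0.203 and 0.166, r = 0.55 without the 2 farthest) and -0.33 with PLX5622. For the microglial sum r was -0.12 and 0.65 (exact adjusted p = 0.912 and 0.332). For the meningeal fibroblast sum it was -0.63 and 0.08 (exact adjusted p = 0.332 and 0.912).

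The members as a list had a higher median spread between libraries than all genes. Differences between mice, dissections and library preparations cannot be told apart in it. The biological coefficient of variation, which edgeR estimates after removing counting noise and diet, had a median of 0.12 over the 29 tested members and of 0.065 over all 11051 genes. Ermn had the highest value, 0.34, followed by Mobp at 0.31 and Bcas1 at 0.23, while Enpp2 and Gpr37, at 0.058 and 0.064, lay below the median of all genes. When the summed level of the 45 other oligodendrocyte genes was added to the model, the median over the members was 0.070. In that model 28 of the 29 values were lower, and so were 8654 of the 11051 values over all genes. Mog went from 0.22 to 0.071, Mbp from 0.21 to 0.11 and Aspa from 0.14 to 0.059, while Apod went from 0.20 to 0.21. The median over all genes was 0.062 in that model.

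Microglial markers were lower in the PLX5622 libraries. The 18 microglial markers summed to 549 ± 51 CPM in controls (488.9 to 675.0 CPM) and 175 ± 28 CPM with PLX5622 (135.7 to 229.3 CPM; SD, n = 9 each), and all 15 tested were called lower. Over all 11051 genes 44 were called, 39 lower and 5 higher.

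No member passed the test for diet. Of the 29 tested, 0 were called higher or lower by edgeR (lowest adjusted p = 0.808), against 0.398% of all genes, and 0 had an unadjusted p under 0.05, against 6.79% of all genes. DESeq2 and limma-voom also called 0. The median log2 fold change of PLX5622 over control was 0.04 over the members and 0.0001 over all genes, with 19 members above 0 and 10 below. Without PLX5622 28 the members' median was -0.02, with 14 of 29 above 0. In all 29 the CPM ranges of the diets overlapped, and over all tested genes 0.199% had ranges that did not overlap.

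The structural genes lay on both sides of 0. Mbp averaged 663 ± 112 CPM in controls and 690 ± 180 CPM with PLX5622 (SD, n = 9 each), a log2 fold change of 0.05 ± 0.15 (SE, edgeR adjusted p = 0.989) with a 95% interval from -0.26 to 0.36. Mog was at 0.01 ± 0.18, Mag at -0.05 ± 0.11, Cnp at -0.07 ± 0.11, Mal at 0.04 ± 0.14 and Cldn11 at 0.13 ± 0.11. Mobp had the largest positive value, 0.30 ± 0.24, with an interval from -0.20 to 0.80, and 6 of 9 libraries on the drug exceeded the mean of the controls. Opalin had the largest negative value and the smallest p of the members, -0.25 ± 0.14 (unadjusted p = 0.091, edgeR adjusted p = 0.808), from 22.9 ± 4.8 to 19.3 ± 5.3 CPM (SD, n = 9 each), and 2 of 9 libraries on the drug exceeded the mean of the controls.

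Lipid genes and regulators had no call either. Ugt8a was at 0.03 ± 0.12, Fa2h at 0.06 ± 0.15, Aspa at -0.10 ± 0.17 and Enpp2 at 0.02 ± 0.05 (log2 fold change, SE), the last with an interval from -0.09 to 0.13. Sox10 was at 0.12 ± 0.15 and Olig1 at 0.08 ± 0.09. Of the other members Car2 was at 0.07 ± 0.11, Cryab at 0.06 ± 0.09 and Apod at -0.04 ± 0.15. After Opalin the smallest p belonged to Plekhb1 (0.13 ± 0.08), Mobp, Ndrg1 (0.15 ± 0.12) and Cldn11, with unadjusted p of 0.134, 0.217, 0.230 and 0.238.

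These intervals bound the change that could have been missed. For 27 of the 29 members the 95% interval lay within a 1.5-fold change in either direction, and for 29 within 2-fold. The exceptions at 1.5-fold were Mobp and Ermn (0.27 ± 0.26, interval from -0.28 to 0.82), the members with the widest spread between libraries. A p that misses the threshold does not show that the diets were equal. On simulated data the same fit found 72% of changes of 1.5-fold and 98% of those of 2-fold. Those changes were placed on genes drawn from all tested genes. The median coefficient of variation was 0.065 over all tested genes and 0.12 over the members. The simulated set gave 161 calls and the data 44, so the shares may be lower for the members. A change of 1.5-fold or less in a single gene, or a larger one in Mobp or Ermn, could thus have been missed.

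**Figure D4:**
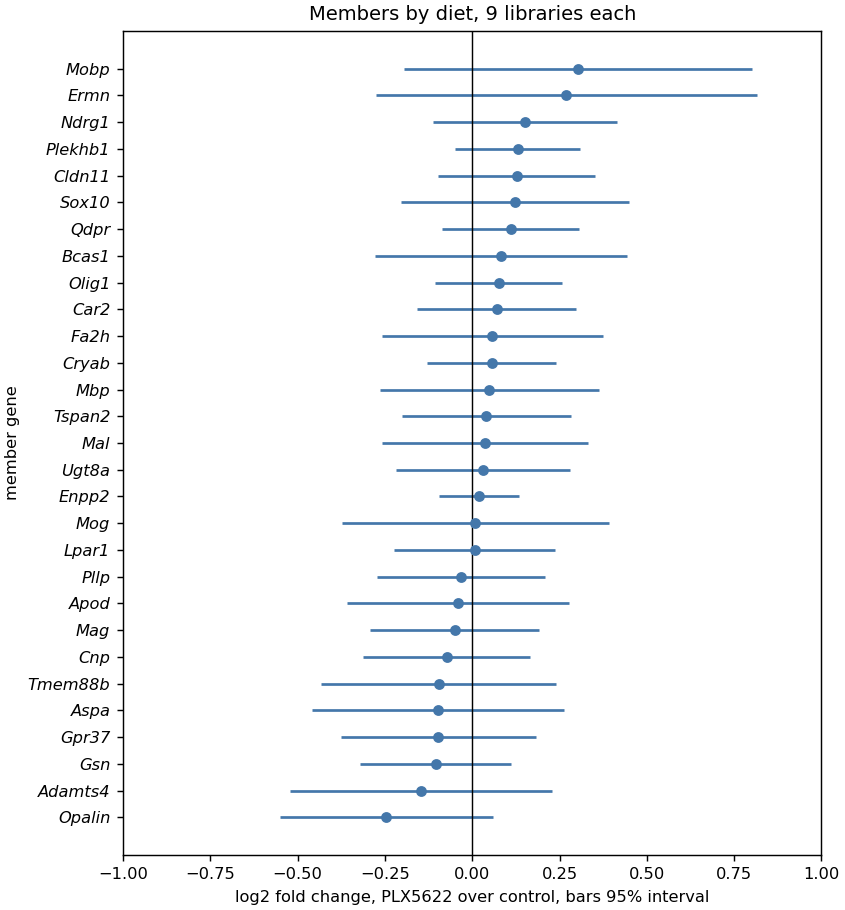
Log2 fold change of PLX5622 over control diet for the 29 tested members (horizontal axis, bars 95% interval), 9 libraries per diet. All intervals cross 0, from Opalin at -0.25 to Mobp at 0.30.

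With the summed level of the 45 other oligodendrocyte genes as a covariate, which takes out part of the swing, 0 members were called, against 0.407% of all genes in the same fit. An unadjusted p under 0.05 was found in 7 of the 29, against 6.73% of all genes. Farthest from 0 relative to SE, and all above 0, were Plekhb1 (0.18 ± 0.07), Qdpr (0.17 ± 0.06), Cldn11 (0.21 ± 0.08), Ndrg1 (0.24 ± 0.10), Ermn (0.41 ± 0.18), Mobp (0.43 ± 0.19) and Car2 (0.14 ± 0.07). The lowest edgeR adjusted p of the members was 0.471. The members' median was then 0.13, with 23 of 29 above 0. That covariate itself was 2164 ± 84 CPM in controls and 2128 ± 93 CPM with PLX5622 (SD, n = 9 each). Its highest library exceeded its lowest only 1.13-fold and 1.14-fold, and the members' median slope on it was 3.21. The effect of its small difference between the diets on the adjusted values was not tested. This covariate drew its largest parts, 379, 281 and 272 CPM in controls, from Pex5l, Tppp and Tubb4a, with slopes on Mbp of 0.03, 0.12 and 0.07. Of its 34 tested genes 0 were called by diet in either direction, with a median of -0.04, and those with the smallest p were Elovl7 at -0.26, Efnb3 at -0.14, S1pr5 at -0.31, Rhog at -0.28 and Sox8 at -0.23 (lowest edgeR adjusted p = 0.781). Precursor and new oligodendrocyte genes also gave 0 calls among 15 tested, and summed to 1545 ± 108 and 1554 ± 59 CPM. Cacng4 and Olig2 had the smallest p on that list, at 0.32 and 0.49 (edgeR adjusted p = 0.310 and 0.514).

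By role, the summed levels of the members overlapped between the diets. The structural genes summed to 1294 ± 206 CPM in controls and 1336 ± 313 CPM with PLX5622 (SD, n = 9 each). The 6 lipid genes gave 312 ± 37 and 316 ± 29 CPM, the 4 regulators 85.3 ± 13.4 and 92.9 ± 11.8 CPM, and the 11 others 779 ± 83 and 816 ± 120 CPM. No test was made on these sums.

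Too few counts for the test were found in 9 members. Myrf, the factor that switches on myelin genes, gave 82 counts over the controls and 107 over the treated libraries, at 6.77 ± 1.91 and 8.82 ± 3.46 CPM (SD, n = 9 each). Its highest libraries were control 4 and PLX5622 28, those highest in Mbp. Nkx6-2, a regulator of the same lineage, had 48 and 52 counts (3.92 ± 2.04 and 4.18 ± 1.55 CPM). Enpp6 had 73 and 72, Hapln2, a link protein at nodes of Ranvier, 72 and 70, and Ppp1r14a 67 and 59. Gjb1, the connexin 32 gene, had 38 and 37 counts, and Gamt, an enzyme of creatine synthesis, 97 and 81. DESeq2 and the fit with no count filter, which include these 7, called none of them by diet.

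Evi2a and Gatm were listed at 0 in all 18 libraries. The gene model of Evi2a is overlapped over 99.5% of its span by another model on its strand, and the part of that overlap in its count was not tested. No model in GENCODE M21 overlaps Gatm on its strand, and why it is listed at 0 is not given by the files. Neither zero shows that the gene was silent. Among members with counts, models on the opposite strand cover 97.1% of Qdpr, 53.0% of Cnp, 32.2% of Bcas1 and 28.0% of Enpp6. They also cover 21.3% of Pllp, 19.4% of Cryab, 14.6% of Tspan2 and smaller shares of some others. Since the strand setting is not given in the sources used here, part of the counts of these members may belong to the partner.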

How the data were processed

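Read counts per Ensembl gene, as deposited by the authors, stood in 1 file per library with 54547 identifiers each. Per the submitters' processing notes the tools were R 3.5.1, HTSeq 0.11.0, Bowtie2 2.3.4.3, DESeq2 1.10.1 and FastQC 0.11.8, with genome builds GRCm38.p6 and mm10. Per the labels' protocols, fragmented RNA was made into cDNA by template switching and read from a single end, and the series' design text calls the reads biased to the 3′ UTR. What each tool was used for, the strand setting, the counted feature and the annotation release are not stated in those sources. Libraries held 990136 to 1742680 counts (median 1384979). The lowest chi-square per degree of freedom over 153 pairs of libraries was 1.13, so none was counted as a duplicate. The labels name no cage or session, so p-values measure the spread between these samples.

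Identifiers were matched without version to GENCODE M21 (53706 matched, and the 841 others held 0.028% of counts). Over 11051 genes, edgeR 4.0.16 (R 4.3.3) was run with filterByExpr (minimum count 10, minimum total 15), TMM and robust quasi-likelihood. Genes were called at a Benjamini-Hochberg adjusted p under 0.05. Log2 CPM carry a prior count of 2. SE are the estimate divided by the root of F, and 95% intervals use 16 degrees of freedom. DESeq2 1.42.0, limma-voom (3.58.1), other scalings, filters and covariates, and leaving out each library were alternatives.

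On simulated counts over 11050 genes, the diet fit found 38% of genes changed by 1.25 times, 72% by 1.5 times, 98% by 2 times and 100% by 3 times. Of its 161 calls 7 were false. The slope fit found 33% of slopes of 0.5 and 85% of slopes of 1, and 3 of its 121 calls were false. Those slopes too were placed on genes drawn from all tested genes, and the data gave 18 calls. The shares may therefore be lower for the members.

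Members and lists were chosen with earlier results of these data known. The rule for named genes took 18 set members, the 5 smallest p by diet and the 5 highest and lowest slopes. It also took up to 5 genes of the other oligodendrocyte list per test and up to 2 per marker list. From outside the lists it took the 10 genes with the smallest p for the slope on Mbp, of either sign. Of these 10, 1 gene is not reported here.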

Additional observations from a re-analysis of the deposited data

Results flagged for a closer look

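Of 58 sets of 9 libraries examined (29 members in each diet), 3 held a library set apart from the other 8 by a gap above Dixon's 95% critical value. By chance about 1 in 20 such sets would. Opalin in control 8 was at 33.4 CPM (46 counts), with the next control at 25.0 CPM. Sox10 in PLX5622 27 was at 10.9 CPM (17 counts), with the next PLX5622 library at 17.1 CPM. Ndrg1 in PLX5622 28 was at 84.8 CPM (82 counts), with the next at 60.2 CPM. Control 8 and PLX5622 28 were among the libraries highest in Mbp in their diets, and PLX5622 27 was the lowest.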

How the results depend on the processing

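No paired analysis was possible because the replicate numbers of the diets do not overlap. The count of members called by diet was 0 under each alternative run. The count following Mbp was 13, 9 to 15 when 1 library was left out, 9 without control 4, control 8 and PLX5622 28 (added after seeing the data), 6 at a mean of at least 50 counts (fewer members tested), and 12 to 16 with other scalings, no count filter or limma-voom. In place of Mbp, Cnp and the sum of other oligodendrocyte genes gave 12 each, Mbp among them, with 8 and 10 of the 13. Signs of diet differences near 0 turned for some members, none of them called. With the covariate of other oligodendrocyte genes Mag, Cnp, Pllp and Aspa were at 0.0198, 0.0036, 0.0516 and 0.0632 (log2 fold change). Mog was at -0.0303 by limma-voom. Without the 3 libraries named above Mag, Pllp and Adamts4 were at 0.0194, 0.0314 and 0.0928. Leaving out 1 library, log2 fold changes ran from -0.115 to 0.0507 for Apod, -0.177 to 0.0061 for Aspa, -0.0047 to 0.0436 for Enpp2, -0.0497 to 0.148 for Fa2h, -0.0476 to 0.0523 for Lpar1, -0.127 to 0.0124 for Mag, -0.0264 to 0.101 for Mal, -0.0229 to 0.119 for Mbp, -0.0800 to 0.116 for Mog, -0.0822 to 0.0356 for Pllp, -0.0293 to 0.106 for Tspan2 and -0.0168 to 0.0900 for Ugt8a. The slope of Apod was 0.307 on the sum of other oligodendrocyte genes, 0.153 on Cnp, 0.0161 by limma-voom, 0.0039 with library size only and 0.0088 at a mean of at least 50 counts, and -0.169 to 0.26 with 1 library left out. The cause was not tested. Members with few counts, such as Aspa and Sox10, are limited by counting noise.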

Other observations

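PLX5622 35 differed from the order that Mbp gave. Mobp was at 47.7 CPM there, above each of the other 17 libraries, and Mal at 137.1 CPM, while Mbp was at 569 CPM and Ermn at 15.0 CPM, the lowest Ermn level of its diet. The library held 1485842 counts.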
